A study of Mus musculus with 48 samples.

Results

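The comparison concerned CD4+ T cells sorted from B16F10 tumors (CD4+ TILs) of WT and Yap-cKO mice. It used the 8 libraries whose labels name CD4 TILs, 4 per genotype, of the 48 libraries in the series. B16F10 is a pigmented mouse melanoma line, implanted here under the skin of C57BL/6J mice aged 6 to 10 weeks. Yap-cKO mice carried Yap-loxP/loxP, LSL-EYFP (a reporter switched on by Cre) and CD4-Cre, and WT mice were littermates, whose exact alleles the labels do not give. CD4-Cre is active from the double-positive stage of thymocyte development, so Yap was deleted in CD4+ and CD8+ T cells alike, while tumor, stromal and other immune cells kept it. Live CD4+ cells were sorted by flow cytometry, and their RNA was amplified as full-length cDNA and sequenced. CD4+ T cells from tumor-draining lymph nodes (TDLNs) of both genotypes, 4 libraries each, served as the nearest tissue comparison.

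Yap is the transcriptional coactivator at the end of the Hippo pathway. When the Hippo kinases are inactive, Yap and its relative Taz (encoded by Wwtr1) enter the nucleus and bind Tead transcription factors, which recognize a short DNA motif in target genes such as Ccn1 and Ccn2. The pathway is best known in epithelial, endothelial and mesenchymal cells, where it follows cell contact and tension. CD4+ T cells in tumors are a mixture of Foxp3+ regulatory T cells (Tregs) and conventional helper cells, and many of them carry costimulatory and inhibitory receptors induced by antigen.

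The sorted identity was checked on Cd4, Cd3e and Foxp3. Levels are given in CPM, a gene's counts relative to all counts of its library, with edgeR's TMM normalization, and 4 values of a genotype belong to its replicates 1 to 4 in that order. Cd4 held 118, 407, 529 and 461 CPM in the WT libraries against 981, 852, 613 and 781 CPM in the Yap-cKO libraries. Cd4 was thus lower in every WT than in every Yap-cKO library, and WT replicate 1 stood lowest. Cd3e was at 154 to 879 CPM in WT against 683 to 1623 CPM in Yap-cKO TILs, and Foxp3 was detected in all 8 libraries. Cd8a and Cd8b1, which mark CD8+ T cells, summed to 6.92 to 26.5 CPM, and 6 NK cell genes to 6.85 to 15.5 CPM. Each library held 15580152 to 18044407 counts on genes, at which 3 counts correspond to 0.166 to 0.193 CPM.

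RNA of tumor and stromal cells was present in the sorted libraries, and there was more of it in WT mice. The sum of 15 melanoma markers came to 21553, 15852, 6869 and 10055 CPM in the WT libraries against 225, 1044, 2741 and 1104 CPM in the Yap-cKO libraries. The WT mean of 13582 ± 6486 CPM was 10.6 times the Yap-cKO mean of 1278 ± 1054 CPM (SD, n = 4), and the genotypes did not overlap. In WT CD4+ cells of TDLNs the same sum was 12.3 to 18.3 CPM.

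The stromal markers differed in the same direction. Endothelial markers (14 genes) summed to 275 to 749 CPM in WT against 97.3 to 249 CPM in Yap-cKO TILs, and fibroblast markers (14 genes) to 188 to 760 and 14.8 to 102 CPM. Pericyte and smooth muscle markers (10 genes) summed to 207 to 669 CPM in WT against 10.5 to 58.9 CPM in Yap-cKO TILs. Macrophage and monocyte markers overlapped between the genotypes, at 335 to 865 and 137 to 685 CPM. Hemoglobin and platelet genes were at 270 to 2152 CPM in WT against 39.4 to 210 CPM in Yap-cKO TILs. The 15 T-lineage genes (CD3 chains, Lck, Zap70, Lat and others) went the other way, from 1838 to 7192 CPM in WT to 7723 to 11474 CPM in Yap-cKO TILs. In WT CD4+ TDLN cells the endothelial sum was 151 to 200 CPM, as high as in Yap-cKO TILs, and the fibroblast and pericyte sums were 4.96 to 8.53 CPM. B cell markers (8 genes) summed to 114, 235, 272 and 192 CPM in the WT libraries against 309, 402, 466 and 347 CPM in the Yap-cKO libraries, without overlap and 1.87 times higher on average, and to 298 to 658 CPM in WT CD4+ TDLN cells. Mitochondrial genes took 0.601% to 1.84% of the counts in the WT and 0.140% to 0.744% in the Yap-cKO libraries, with overlap, and the highest share was in WT replicate 1 and the lowest in Yap-cKO replicate 3. Genes with an effective transcript length above 3000 bases took 14.06%, 17.74%, 16% and 19.29% of the counts in the WT libraries. In the Yap-cKO libraries they took 22.3%, 20.38%, 13.45% and 15.48%, so that Yap-cKO replicate 3 was the lowest of all 8. The part of B cells and of RNA quality in the results was not tested. In such mixed libraries fewer cells of a type and less RNA per cell cannot be told apart.

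**Figure D1:**
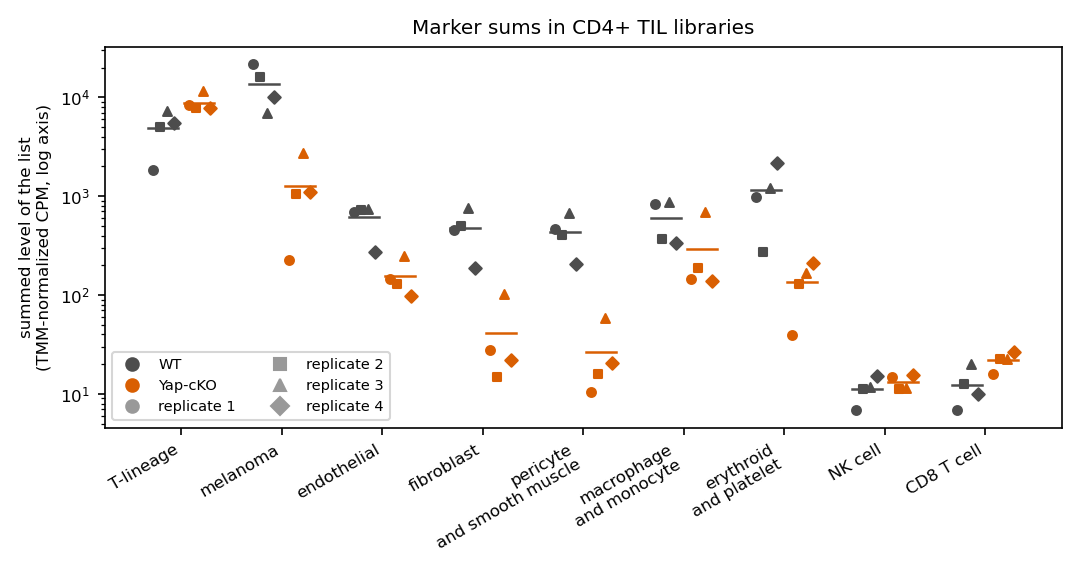
Each point is the summed TMM-normalized CPM of a marker list in 1 CD4+ TIL library (log axis), with WT in gray, Yap-cKO in orange, the replicate number as the symbol and a bar at the mean of 4 libraries. The melanoma, endothelial, fibroblast, pericyte and erythroid sums of all 4 WT libraries lie above all 4 Yap-cKO libraries, and the T-lineage sums lie below them.

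Of these libraries WT replicate 1 had the highest melanoma sum and the lowest T-lineage sum, and Yap-cKO replicate 3 had the highest melanoma, fibroblast and macrophage sums of its genotype. Ddx3y and Eif2s3y, 2 genes of the Y chromosome, each reached 10 counts in WT replicates 1 to 3 but in neither WT replicate 4 nor any of the 4 Yap-cKO libraries. Between those 3 WT libraries and the Yap-cKO libraries the presence of Y-linked RNA and genotype cannot be told apart. Genes on the Y chromosome were left out of every fit. For this reason the values of WT replicate 4 are given beside each main gene.

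Genotype was associated with more genes that were lower than higher in Yap-cKO CD4+ TILs. Of 14200 genes tested, 193 were higher and 946 lower in Yap-cKO mice by edgeR's quasi-likelihood F test (Benjamini-Hochberg adjusted p under 0.05, with a log2 fold change beyond 1 in size). These 1139 genes are 8.02% of all tested, 1.36% higher and 6.66% lower. The values of the genotypes did not overlap in 4.32% of all tested genes with Yap-cKO above and in 13.3% with Yap-cKO below WT. The median log2 fold change over all genes was 0.14. Without WT replicate 1, the library richest in melanoma RNA, 27 genes were higher and 390 lower, and without Yap-cKO replicate 3 the numbers were 1175 and 2060. When only WT replicate 4 was compared with the 4 Yap-cKO libraries, an alternative added after the data were seen, edgeR called 0 of 12982 genes while 758 passed at an unadjusted p under 0.05. A single WT library leaves little power for calls, so the medians of lists are given beside it. The median log2 fold change against WT replicate 4 was −2.91 for melanoma, −1.65 for endothelial and 1.56 for Treg genes, where it was −3.13, −3.01 and 1.74 with all 8 libraries. For Yap and its partners it was −2.41 beside −2.58, and for Yap target genes −0.81 beside −2.42, with 16 and 20 genes tested. Among those called with all 8 libraries, 12 of the 193 and 219 of the 946 were called in every one of the 8 fits that left out 1 library. Genes with too few counts in a fit were not tested in it and count here as not called. Aplnr, Arhgef17, Tgfb2, Gm4956, Gm7600 and Pigz were tested in only 4 of these fits and called in all 4. Tead4 and Sall1, also tested in 4, were called in 2, and Rbms3 and Rassf6 in 1. The 12 and 219 are thus minimum numbers for calls that held wherever the gene was tested.

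The genes called lower were mostly low in CD4+ T cells outside the tumor. In WT CD4+ TDLN cells 67.5% of the 946 genes were under 1 CPM, against 19.0% of all tested genes. Their median log2 fold change was −3.01, and it was −1.999 for the 307 genes at 1 CPM or more in TDLNs. Of the 193 genes called higher, 142 (73.6%) were at 1 CPM or more in WT TDLN cells, against 81.0% of all tested genes. Within the 4 WT libraries, 26.3% of the genes called lower and 6.89% of all tested genes took the same order as the melanoma sum (replicates 1, 2, 4, 3 from high to low), and 24.9% of the genes called higher and 6.75% of all tested genes took the order of the T-lineage sum (3, 4, 2, 1). The endothelial and fibroblast sums shared another order (3, 2, 1, 4). It was taken by 2.96% of the genes called lower, 25 of the 193 called higher and 3.67% of all tested genes. For the order of the pericyte sum (3, 1, 2, 4) these values were 2.64%, 7 and 2.73%. The genes called lower thus took the melanoma order more often than all genes, but not the endothelial, fibroblast or pericyte order. The part of the marker RNA in these calls cannot be told apart from genotype. Genotype accounted for a share of 0.857 of the variance of the 53 markers' mean, so the fit with that mean as a covariate, given among the alternatives, cannot separate them.

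**Figure D2:**
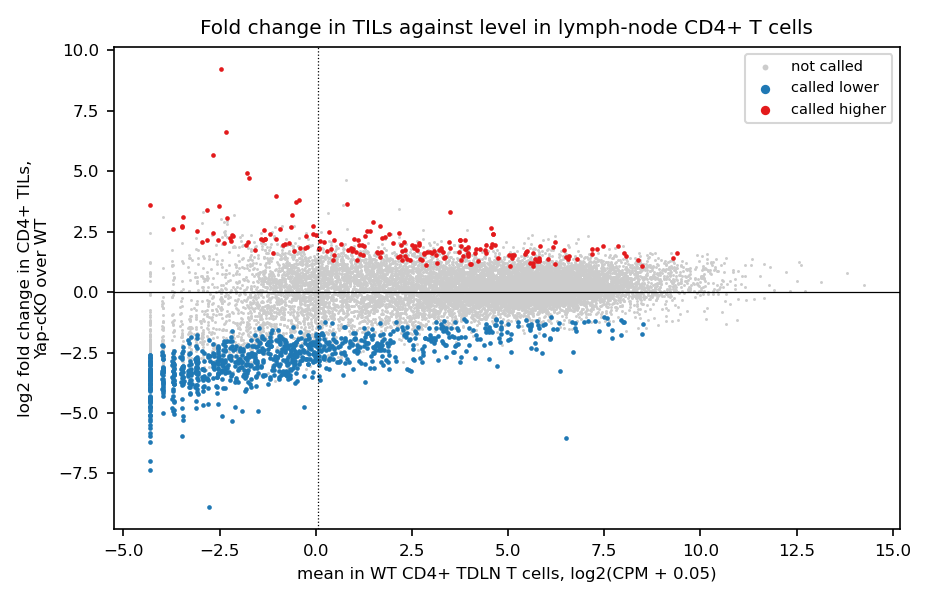
Each point is a tested gene, with its mean in WT CD4+ TDLN cells on the horizontal axis (log2 of CPM plus 0.05) and its log2 fold change in CD4+ TILs, Yap-cKO over WT, on the vertical axis, and the dotted line marks 1 CPM. Of the 946 genes called lower (blue), 639 lie left of the line, and of the 193 called higher (red), 142 lie at or right of it. Of all 14200 tested genes, 11499 (81.0%) lie at or right of it.

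Yap1 itself was lower in Yap-cKO TILs. This gene (ENSMUSG00000053110.13, chromosome 9, 7931999 to 8004596 on GRCm38) held 30.96, 24.3, 16.7 and 21.8 CPM in the WT libraries against 1.87, 3.29, 5.98 and 2.79 CPM in the Yap-cKO libraries. The lowest WT value was above the highest Yap-cKO value, and WT replicate 4 lay among the other WT libraries. This made a log2 fold change of −2.58 with a standard error of 0.44 (adjusted p = 0.00973), and Yap1 was called in 8 of the 8 fits that left out 1 library. The counts cover the whole gene, so transcripts from a deleted allele would still be counted.

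The level of Yap1 moved with the melanoma markers. In both genotypes the replicate with the most melanoma marker RNA had the most Yap1, and the order of the 4 WT libraries was the same for both. Per 1000 CPM of melanoma markers, Yap1 held 1.44, 1.53, 2.43 and 2.17 CPM in the WT libraries against 8.31, 3.16, 2.18 and 2.53 CPM in the Yap-cKO libraries. This ratio was higher in Yap-cKO replicate 1 than in any other library, and the ranges of the genotypes overlapped at 2.18 to 2.43 CPM. In CD4+ TDLN cells, where melanoma RNA was near absent, Yap1 averaged 1.63 CPM in WT against 1.85 CPM in Yap-cKO mice (normalized over 24 libraries). Whether the melanoma cells supplied the Yap1 of the WT TIL libraries was not tested.

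**Figure D3:**
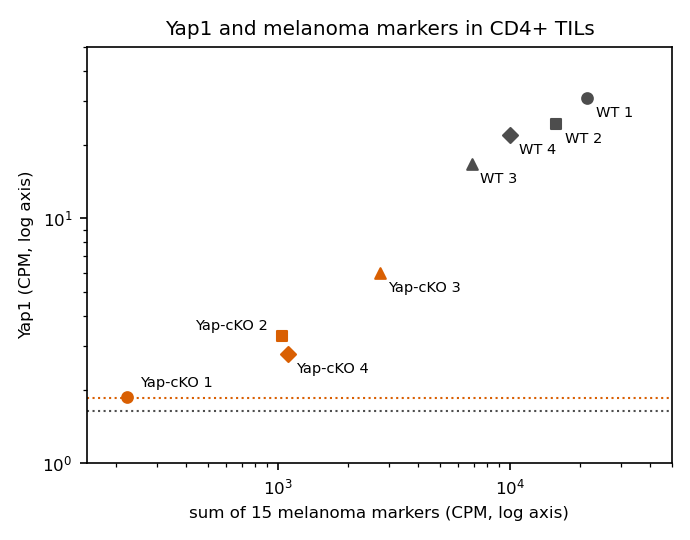
Yap1 (CPM, log axis) is plotted against the summed CPM of 15 melanoma markers (log axis) for the 8 CD4+ TIL libraries, WT in gray and Yap-cKO in orange, and the dotted lines give the mean Yap1 level in CD4+ TDLN cells of WT (gray, 1.63 CPM) and Yap-cKO mice (orange, 1.85 CPM). Yap1 runs from 1.87 CPM in Yap-cKO replicate 1 to 30.96 CPM in WT replicate 1, the libraries with the lowest and the highest melanoma sums.

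Among the partners of Yap, 5 of the 7 tested genes were called lower and 0 higher. Wwtr1, which encodes Taz, held 89.3, 55.5, 48.5 and 39.7 CPM in the WT libraries against 1.42, 5.71, 14.8 and 3.33 CPM in the Yap-cKO libraries, without overlap (log2 fold change −3.01, standard error 0.66, adjusted p = 0.02). Tead1 fell by 2.24 and Tead4 by 3.38 on the log2 scale, and Vgll3, a Tead cofactor, fell by 2.97. Tead2 was at 12.8 to 19.9 CPM in WT against 0.713 to 7.07 CPM in Yap-cKO TILs without passing (adjusted p = 0.0646), and Tead3 was too low to test. Vgll4, a Tead cofactor that competes with Yap, was at 104 to 140 CPM in WT against 157 to 253 CPM in Yap-cKO TILs and did not pass either (log2 fold change 0.77). In CD4+ TDLN cells Wwtr1 averaged 0.0519 CPM (WT) and 0.0792 CPM (Yap-cKO), levels that this depth does not separate from 0. Of the 5 calls, only that of Yap1 held in every fit that left out 1 library.

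Of 20 tested Yap target genes, 8 were called lower and 1 higher, with a median log2 fold change of −2.42. In the fits that left out 1 library, 3 to 12 were lower, with medians from −2.93 to −1.25. The 12 came without Yap-cKO replicate 3 and the 3 without WT replicate 1 or 2. Fits without a WT library tested only 16 of the targets, with medians from −1.505 to −1.25. Those without a Yap-cKO library tested all 20, with medians from −2.93 to −2.02. The counts and medians of these fits are thus not over the same genes. Ccn1, a secreted matrix protein and a classical Yap target, held 328, 105, 115 and 125 CPM in the WT libraries against 1.22, 11.6, 27.7 and 7.90 CPM in the Yap-cKO libraries (log2 fold change −3.599, standard error 0.79, adjusted p = 0.021). Amotl2, an angiomotin that binds Yap, held 20.5, 26.1, 14.1 and 14.8 CPM in the WT libraries against 2.64, 1.41, 4.05 and 1.43 CPM in the Yap-cKO libraries (log2 fold change −2.83, standard error 0.47, adjusted p = 0.00861). In both genes every Yap-cKO library was below every WT library, and only the call of Amotl2 held without each library in turn. Ptpn14, a phosphatase that restrains Yap, fell by 2.85, the membrane repair gene Myof by 3.38 and Arhgef17 by 4.90 on the log2 scale. F3 (tissue factor), Rbms3 and Tgfb2 were also called lower. Ccn2 was at 50.01 to 89.5 CPM in WT against 1.42 to 24.4 CPM in Yap-cKO TILs, and the spread set by Yap-cKO replicate 3 left it short of the threshold (adjusted p = 0.0722).

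The 1 target called higher was Gadd45b, a stress gene that is also induced by T cell activation. It held 55.9, 108, 192 and 83.2 CPM in the WT libraries against 658, 286, 346 and 255 CPM in the Yap-cKO libraries, a log2 fold change of 1.92 (adjusted p = 0.0256). In WT CD4+ TDLN cells Gadd45b averaged 177 CPM, while Ccn1, Amotl2, Ptpn14, Arhgef17 and Myof averaged between 0.223 and 0.942 CPM. Relative to T-lineage genes 12 of the 20 targets were lower and 0 higher, so Gadd45b was no longer called on that scale.

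The Tead motif, GGAATG or its reverse complement CATTCC, was searched in RefSeq promoter windows of GRCm38.p6. It was found on either strand in 14.7% of 32851 windows. With each gene counted once, it was found in 14.1% of the 10548 tested genes with a window. The share was 19.0% of the 712 such genes called lower and 14.3% of the 133 called higher. Among the Yap target genes 3 of 8 called and 4 of 6 not called held it, so its presence did not separate the called targets from the others. The 3 called targets with the motif are shown, each with 60 bases on either side at most and the motif in capitals, on the strand of the gene, 5′ to 3′. The motif lay 65, 146 and 103 bases before the RefSeq start of Amotl2, Ptpn14 and Ccn1, and in all 3 it read CATTCC. A match of these letters is no evidence of binding.
Amotl2, chr9:102717679-102717803, plus strand: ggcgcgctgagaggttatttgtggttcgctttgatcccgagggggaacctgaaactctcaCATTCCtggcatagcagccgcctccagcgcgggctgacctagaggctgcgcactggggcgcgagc
Ptpn14, chr1:189728062-189728187, plus strand: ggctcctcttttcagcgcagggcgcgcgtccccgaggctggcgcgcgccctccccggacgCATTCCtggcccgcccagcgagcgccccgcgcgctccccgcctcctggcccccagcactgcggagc
Ccn1, chr3:145650023-145650148, minus strand: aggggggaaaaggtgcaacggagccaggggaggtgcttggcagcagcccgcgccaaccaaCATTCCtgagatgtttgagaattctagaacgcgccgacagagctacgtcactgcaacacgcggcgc

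Some scaffold proteins of the Hippo kinase list were lower. Of 15 tested genes 3 were called lower, next to 6.66% of all tested genes, and 0 higher, with a median of −0.08. The Lats-binding scaffolds Wwc1 and Wwc2 fell by 2.22 and 2.26 and the angiomotin Amotl1 by 3.06 on the log2 scale. Amotl1 held 41.8, 37.6, 19.2 and 26.6 CPM in the WT libraries against 1.29, 4.00, 5.66 and 2.44 CPM in the Yap-cKO libraries, without overlap. Stk4, the kinase of this pathway best known in T cells, was at 100.1 to 253 CPM in WT against 115 to 436 CPM in Yap-cKO TILs (log2 fold change 0.67, adjusted p = 0.34). The calls of Wwc2 and Amotl1 held without each library in turn. In both of these genes, though not in Wwc1, the order of the WT libraries was that of the melanoma sum.

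The 10 protein-coding genes with the largest decreases among those at 10 CPM or more in WT and without overlap were Aplnr, Rbp7, Acta2, Steap4, Gpc4, Kdr, Emcn, Plpp3, Col6a3 and Pdgfrb. They include genes of endothelial cells (Aplnr, the apelin receptor, Kdr, a VEGF receptor, and Emcn, a sialomucin), of smooth muscle and pericytes (Acta2 and Pdgfrb) and of fibroblasts (Col6a3, a collagen VI chain). Their log2 fold changes ran from −6.97 to −4.49. Aplnr held 31.4, 25.3, 38.2 and 10.1 CPM in the WT libraries against 0.257, 0.235, 0.129 and 0.119 CPM in the Yap-cKO libraries (standard error 0.57, adjusted p = 0.000657). Kdr held 44.5, 75.9, 47.9 and 17.1 CPM in the WT libraries against 0.901, 1.59, 2.63 and 1.07 CPM in the Yap-cKO libraries (log2 fold change −4.74, standard error 0.57, adjusted p = 0.00609). All 10 averaged at most 0.213 CPM in WT CD4+ TDLN cells, and in all 10 WT replicate 4 had the lowest WT value. That it lay above every Yap-cKO library follows from the choice of genes without overlap.

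By marker list, 10 of 15 melanoma, 6 of 14 endothelial, 8 of 10 fibroblast and 8 of 10 pericyte genes tested were called lower, with medians of −3.13, −3.01, −3.38 and −3.84. Over the 8 fits that left out 1 library these counts were 4 to 15, 3 to 13, 1 to 9 and 5 to 10. They were highest without Yap-cKO replicate 3, and the lowest came without Yap-cKO replicate 4 for melanoma and fibroblast genes and without WT replicate 2 for endothelial genes. The pericyte count was lowest without either of these. The melanocyte genes Tyr, Tyrp1, Dct and Mitf were called, and Pmel (adjusted p = 0.0552) and Mlana (adjusted p = 0.0659), which were highest of their genotype in Yap-cKO replicate 3, were not. Among 7 erythroid and platelet genes 4 hemoglobin genes were called lower. Of 12 macrophage genes 0 were called, with a median of −0.76 and 1 gene at an unadjusted p under 0.05, and without Yap-cKO replicate 3, 10 were lower. Of 9 dendritic cell, 6 B cell, 4 neutrophil and 3 NK cell genes tested with edgeR, 0 were called and 2, 2, 1 and 0 had an unadjusted p under 0.05, while DESeq2 called 2 dendritic cell and 2 B cell genes higher and 1 neutrophil gene lower.

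Treg genes were higher in Yap-cKO CD4+ TILs. Of 18 genes tested, 10 were called higher and 0 lower, with a median log2 fold change of 1.74 and 17 with a positive sign. Foxp3 (ENSMUSG00000039521.13, chromosome X, 7573644 to 7595245), the transcription factor that defines Tregs, held 92.2, 223, 287 and 195 CPM in the WT libraries against 659, 586, 423 and 531 CPM in the Yap-cKO libraries. Every Yap-cKO library was above every WT library, which made a log2 fold change of 1.57 with a standard error of 0.36 (adjusted p = 0.0256), and the adjusted p reached 0.0873 without WT replicate 2.

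Klrg1, a receptor of terminally differentiated Tregs, held 46.2, 96.0, 159 and 70.5 CPM in the WT libraries against 434, 478, 225 and 420 CPM in the Yap-cKO libraries (log2 fold change 2.17, standard error 0.41, adjusted p = 0.0134). Ccr8, a chemokine receptor of tumor Tregs, held 72.6, 73.3, 202 and 112 CPM in the WT libraries against 289, 478, 268 and 381 CPM in the Yap-cKO libraries (log2 fold change 1.73, adjusted p = 0.0238). Both genes separated the genotypes in all libraries. The Treg transcription factor Ikzf4 rose by a log2 fold change of 1.79 and Tnfrsf18, which encodes the costimulatory receptor GITR, by 1.48. The cytokine genes Il10, Ebi3 and Areg rose by 1.93, 1.76 and 2.66, Itgae, a chain of the integrin that binds E-cadherin, by 2.10 and Itgb8, a chain of an integrin that activates TGF-β, by 2.43.

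The other 8 members of the Treg list did not pass. Capg, Lrrc32, Izumo1r and Nrp1 had log2 fold changes of 1.18, 1.55, 1.11 and 1.09 (adjusted p from 0.0613 to 0.123), and Gpr83 was the 1 member with a negative value (−0.66, adjusted p = 0.43). Il2ra had a log2 fold change of 2.31 (adjusted p = 0.0785), Ikzf2 of 1.81 (adjusted p = 0.0501) and Ctla4 of 1.53 (adjusted p = 0.0566). In each of these 3 Yap-cKO replicate 3 was far below the other 3 Yap-cKO libraries, with Ctla4 at 258 against 701 to 1170.5 CPM. The number of Treg genes called was 0 to 14 over the 8 fits that left out 1 library, with medians between 1.49 and 1.91, and it was 14 without Yap-cKO replicate 3, 2 without WT replicate 1 and 0 without WT replicate 2. Relative to T-lineage genes 0 of the 18 genes were called, with a median of 0.67 against −1.16 over all genes, and 14 were positive. The increase of the Treg genes thus did not pass on the scale on which the T-lineage genes were held level.

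**Figure D4:**
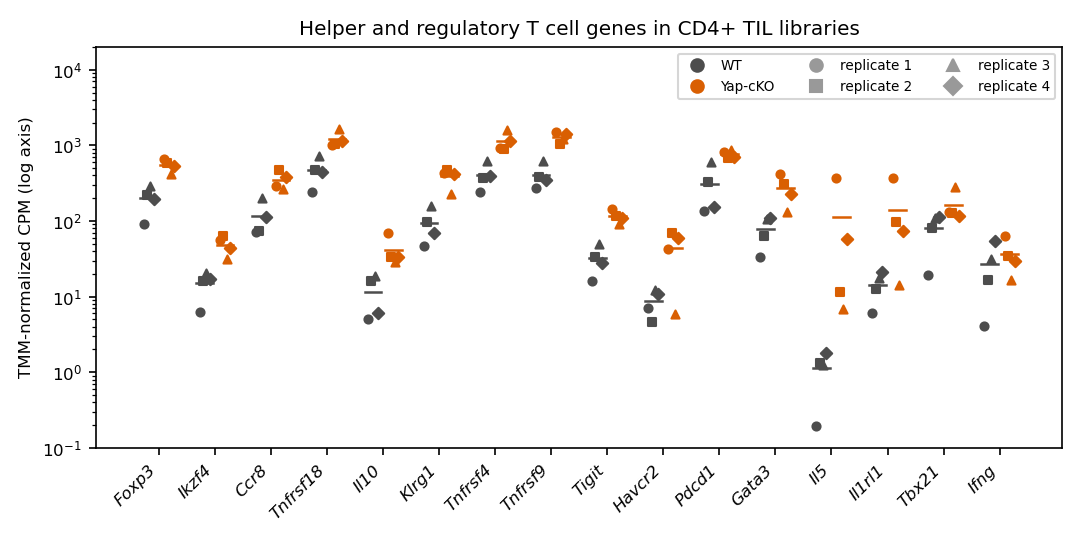
Points give the TMM-normalized CPM (log axis) of Treg, costimulatory, inhibitory and helper genes in each CD4+ TIL library, WT in gray and Yap-cKO in orange, with the replicate number as the symbol and a bar at the mean of 4 libraries. Foxp3, Ikzf4, Ccr8, Klrg1, Tnfrsf9 and Tigit do not overlap between the genotypes, while Tbx21 and Ifng do not pass the test, and Il5 and Il1rl1 are highest in Yap-cKO replicate 1.

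Part of the costimulation list was higher in Yap-cKO TILs. Of 18 costimulation genes tested, 5 were called higher and 0 lower, all 18 had a positive sign and the median was 1.16. Tnfrsf9, which encodes 4-1BB, held 272, 385, 622 and 344 CPM in the WT libraries against 1520.5, 1034, 1222 and 1421 CPM in the Yap-cKO libraries, without overlap (log2 fold change 1.80, standard error 0.34, adjusted p = 0.0134). Tnfrsf4, which encodes OX40, rose by 1.62 and Tnfrsf1b, a TNF receptor that Tregs carry, by 1.63, and Cd80, a B7 ligand also found on activated T cells, by 1.71. Tnfrsf9, Tnfrsf18, Tnfrsf4 and Tnfrsf1b, with the NF-κB inhibitor gene Nfkbia, were the 5 genes with the most CPM among those called higher. The number of costimulation genes called was 12 without Yap-cKO replicate 3, 1 without WT replicate 1, 0 without WT replicate 2 and 0 on the T-lineage scale (median 0.23).

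Some genes of inhibitory receptors and exhaustion were higher as well. Of 13 genes tested, 5 were called higher and 0 lower, 12 had a positive sign and the median was 1.38. Tigit (ENSMUSG00000071552.5, chromosome 16, 43648867 to 43664146), an inhibitory receptor of Tregs and exhausted T cells, held 15.9, 33.9, 49.9 and 28.2 CPM in the WT libraries against 144, 117, 90.5 and 111 CPM in the Yap-cKO libraries (log2 fold change 1.96, standard error 0.36, adjusted p = 0.0125). It was called in 8 of the 8 fits that left out 1 library, the only member of the 5 of which this holds. Lag3 and Havcr2 (Tim-3), inhibitory receptors, rose by 2.35 and 2.43, the exhaustion factor Tox by 1.38 and Prdm1, which encodes Blimp-1, by 1.67. Havcr2 was at 4.59 to 12.3 CPM in WT TILs against 42.3, 68.7, 5.91 and 59.7 CPM in the Yap-cKO libraries, so that replicate 3 fell within the WT range. Pdcd1, which encodes PD-1, was at 134 to 609 CPM in WT against 676 to 881 CPM in Yap-cKO TILs, with an adjusted p of 0.0877. Lag3 and Tox were called in 2 and Havcr2 and Prdm1 in 1 of the 8 fits that left out 1 library. The number of inhibitory receptor genes called was 8 without Yap-cKO replicate 3, 4 without WT replicate 3 and 1 without any other library. On the T-lineage scale 0 of the 13 genes were called (median 0.43).

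Some type 2 genes rose, and Il5 rose most among the protein-coding genes at 10 CPM or more. Of 11 Th2 genes tested, 5 were called higher and 0 lower, with a median of 1.61. Gata3, the transcription factor of Th2 cells that tissue Tregs also express, held 33.2, 64.0, 107 and 109 CPM in the WT libraries against 417, 311, 133 and 229 CPM in the Yap-cKO libraries (log2 fold change 1.88, standard error 0.45, adjusted p = 0.0287). Il5 (chromosome 11, 53720794 to 53725106), the eosinophil growth factor, held 0.198, 1.33, 1.24 and 1.82 CPM in the WT libraries against 374, 11.6, 6.81 and 57.9 CPM in the Yap-cKO libraries. All 4 Yap-cKO libraries lay above all 4 WT libraries, and replicate 1 was far above the other 3. This made a log2 fold change of 6.65 with a standard error of 1.30 (adjusted p = 0.0144), and without Yap-cKO replicate 1 it was 4.57.

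Il13 rose by 4.71 on the log2 scale, and by 3.57 without Yap-cKO replicate 1. It was at 0.647 CPM or less in WT TILs, the level of the lowest Yap-cKO library, and reached 18.5 CPM in Yap-cKO replicate 1. Il1rl1, which encodes the IL-33 receptor ST2 of Th2 cells and tissue Tregs, held 6.06, 12.7, 17.5 and 21.5 CPM in the WT libraries against 366, 97.7, 14.5 and 73.3 CPM in the Yap-cKO libraries (log2 fold change 3.31, adjusted p = 0.0296). Here Yap-cKO replicate 3 lay within the WT range, and the fold change without replicate 1 was 2.20. Pparg, a nuclear receptor of Th2 cells and tissue Tregs, rose by 2.19, with Yap-cKO replicate 3 again within the WT range. Il4 was at 1.71 to 4.65 CPM in WT against 2.00 to 8.68 CPM in Yap-cKO TILs (log2 fold change 1.04, adjusted p = 0.239). Relative to T-lineage genes Il5, Il13 and Il1rl1 were still called higher, and the number of Th2 genes called with the TMM scale was 2 without Yap-cKO replicate 1, 7 without Yap-cKO replicate 3, 0 without WT replicate 1 or 2 and 1 with the replicate block.

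The other helper programs did not pass. Of 14 Th1, 9 Th17 and 9 follicular helper genes tested with edgeR, 0 were called, with medians of 1.11, 1.31 and 0.81, and 6, 4 and 2 had an unadjusted p under 0.05. DESeq2 called 3, 4 and 2 of them higher and 1 Th1 gene lower. The Th1 factor Tbx21 was at 19.0 to 114 CPM in WT against 118 to 284 CPM in Yap-cKO TILs (log2 fold change 1.18, adjusted p = 0.205), and its cytokine Ifng at 4.15 to 54.9 and 16.5 to 64.3 CPM (log2 fold change 0.50, adjusted p = 0.651). Of 13 cytotoxic effector genes 0 were called (median 0.97, 2 at an unadjusted p under 0.05 and 2 called by DESeq2). Naive and memory genes (15 tested, 0 called with edgeR, 1 higher and 1 lower with DESeq2) had a median of 0.06, close to the 0.14 of all genes, and 3 had an unadjusted p under 0.05.

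Genes downstream of the T cell receptor had a median close to that of the T-lineage genes. Of 23 TCR signaling genes 0 were called with edgeR, all 23 were positive and the median was 0.99, next to 0.97 for the 15 T-lineage genes, with 12 at an unadjusted p under 0.05 and 3 called by DESeq2. Ptprc, which encodes CD45, the sort marker of leukocytes, was at 180 to 765 CPM in WT TILs against 1241.5, 1462, 98.1 and 1107 CPM in the Yap-cKO libraries, so that Yap-cKO replicate 3 was the lowest of all 8 libraries. NF-κB genes had a median of 1.27, and 3 of 16 were called higher, namely Nfkb1 (log2 fold change 1.45) and the inhibitor genes Nfkbia (1.40) and Nfkbid (1.91). Nfkbia held 299, 494, 878 and 508 CPM in the WT libraries against 1105 to 1941 CPM in the Yap-cKO libraries, without overlap (standard error 0.38, adjusted p = 0.047). The number of NF-κB genes called was 7 without Yap-cKO replicate 3, 5 without WT replicate 3 and 0 without any other library, and it was 0 on the T-lineage scale and with the replicate block. Of 20 immediate early, 21 common γ-chain and JAK-STAT and 20 interferon-stimulated genes 0 were called with edgeR, with medians of 1.22, 1.06 and 0.99, and 11, 12 and 3 had an unadjusted p under 0.05, while DESeq2 called 7, 7 and 0 higher.

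A few genes of TGF-β signaling fell. Of 20 genes tested, 4 were called lower, next to 6.66% of all tested genes, and 0 higher. The ligands Tgfb2 and Tgfb3 fell by 3.70 and 2.10 on the log2 scale, the receptor gene Acvr1 by 2.35 and Smad5 by 1.41. Of these 4 only Tgfb2 had the WT order of the melanoma sum. The count was 7 without Yap-cKO replicate 3 and 1 without WT replicate 2. Acvr1 was at 10.3 to 13.5 CPM in WT against 1.13 to 3.02 CPM in Yap-cKO TILs and was called without each library in turn. Of 20 chemokine genes the neutrophil attractant Cxcl1 (−3.90) and the stromal chemokine Cxcl12 (−3.90) were lower, and Ccl1, the ligand of Ccr8, was higher (1.80). Ccl1 held 9.81, 12.6, 25.3 and 5.94 CPM in the WT libraries against 47.6, 23.9, 39.8 and 60.8 CPM in the Yap-cKO libraries, with 1 Yap-cKO library below the highest WT library. Among 17 chemokine receptors Ccr8 was called higher, and among 17 integrin and residency genes Itgae and Itgb8 were higher and Itga5, a fibronectin receptor chain, was lower (−2.43). Over all tested genes 1.36% were called higher and 6.66% lower, so these small counts say little about the lists. Itgae, Itga5 and Smad5 kept their calls in 2 and Itgb8 in 3 of the 8 fits that left out 1 library.

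Few cell cycle and hypoxia genes were called with TMM, and more were lower on the T-lineage scale. Of 28 cell cycle genes 3 were called lower, next to 6.66% of all tested genes, and 0 higher, with a median of −0.44. Ccnb1, the mitotic cyclin, fell by 1.59, Rrm2, a ribonucleotide reductase subunit, by 1.32, and Ccnd1, a cyclin that T cells use less than Ccnd2 and Ccnd3, by 2.58 on the log2 scale. In all 3 the order of the WT libraries was that of the melanoma sum. The proliferation marker Mki67 was at 8.73 to 44.1 CPM in WT TILs against 14.99, 85.2, 6.23 and 62.8 CPM in the Yap-cKO libraries (log2 fold change 0.93, adjusted p = 0.437), with its sign reversed on the T-lineage scale (−0.60). Of 22 glycolysis and hypoxia genes 3 were lower and 1 higher. Vegfa, the endothelial growth factor induced by hypoxia, held 112, 72.0, 53.9 and 98.2 CPM in the WT libraries against 15.2, 20.9, 21.3 and 10.1 CPM in the Yap-cKO libraries (log2 fold change −2.17, standard error 0.36, adjusted p = 0.00894). It was called without each library in turn. Hk2 and Bnip3 fell by 1.52 and 1.84, and Egln3, an oxygen-sensing hydroxylase, rose by 1.78, with 103 CPM in Yap-cKO replicate 1 against 36.4 to 38.8 CPM in the other 3 and 13.2 to 18.7 CPM in WT. Without Yap-cKO replicate 3, 11 cell cycle and 11 glycolysis and hypoxia genes were lower. Without WT replicate 1 or 2, or Yap-cKO replicate 2 or 4, these numbers were 0 and 1 in each fit. On the T-lineage scale 18 of the 28 cell cycle and 17 of the 22 glycolysis and hypoxia genes were called lower. Their medians there were −1.97 and −2.04, while 25.6% of all tested genes were lower on that scale, with a median of −1.16.

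The 10 protein-coding genes with the largest increases among those at 10 CPM or more in Yap-cKO TILs and without overlap were Il5, Cyp11a1, Ltb4r1, Pcsk1, Vdr, Dgat2, Penk, Lag3, Ptgir and Klrg1. Ltb4r1 (ENSMUSG00000046908.5, chromosome 14, 55765962 to 55768494), the leukotriene B4 receptor, held 5.99, 20.6, 19.1 and 12.5 CPM in the WT libraries against 160, 67.4, 83.4 and 89.1 CPM in the Yap-cKO libraries (log2 fold change 2.89, standard error 0.44, adjusted p = 0.00701). With TMM it was called without each library in turn. Relative to T-lineage genes its log2 fold change was 1.93 (adjusted p = 0.0181), and there it was called in 6 of the 8 fits that left out 1 library. Penk, which encodes the opioid precursor proenkephalin and is expressed by Tregs, was at 42.0 to 172 CPM in WT against 268 to 600 CPM in Yap-cKO TILs (log2 fold change 2.41).

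Cyp11a1, the first enzyme of steroid synthesis and a gene of type 2 T cells, was at 0.497 to 2.63 CPM in WT TILs against 108, 8.83, 9.06 and 16.3 CPM in the Yap-cKO libraries. Its log2 fold change was 4.94, and 3.38 without Yap-cKO replicate 1. The prohormone convertase gene Pcsk1 rose by 2.74, the vitamin D receptor gene Vdr by 2.51, the triglyceride synthesis gene Dgat2 by 2.42 and the prostacyclin receptor gene Ptgir by 2.28. In Cyp11a1, Vdr, Dgat2 and Ptgir replicate 1 was the highest Yap-cKO library. Over all genes called higher it was the highest Yap-cKO library in 84 of 193.

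Set against T-lineage genes, 3648 of 14200 genes (25.7%) were called, 17 (0.12%) higher and 3631 (25.6%) lower in Yap-cKO TILs, with a median over all genes of −1.16. On this scale a gene with a log2 fold change of 0 moved as the T-lineage genes did. The 17 genes were Gm4956, Gm7600, Il5, Pigz, Ltb4r1, Il13, Etnk2, Bex1, Calca, Il1rl1, Dscaml1, Penk, Rassf6, Sall1, Cyp11a1, Trav3-4 and Hdc, of which 14 were also called with TMM. Gm4956 and Gm7600 were at or under 3 counts in every WT TIL library and were at least 24.4-fold and 17.3-fold higher in Yap-cKO TILs, taken against 3 counts per library. Both were also called higher in Yap-cKO CD4+ TDLN cells, where Gm4956 averaged 0.133 CPM in WT against 5.41 CPM in Yap-cKO mice (adjusted p = 0.0279) and Gm7600 0.108 CPM against 3.97 CPM (adjusted p = 0.0306). In CD45+ TIL libraries they averaged 0.0153 and 0.114 CPM in WT against 2.87 and 2.73 CPM in Yap-cKO mice. They are loci named only by number, whose reads may belong in part to related copies, so their values are uncertain.

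Pigz, an enzyme of glycosylphosphatidylinositol anchor synthesis, held 0.0659, 0.442, 0.353 and 0.176 CPM in the WT libraries against 4.63, 2.59, 3.599 and 3.15 CPM in the Yap-cKO libraries (log2 fold change on the T-lineage scale 2.90, adjusted p = 0.00924). The neuropeptide gene Calca, the histidine decarboxylase gene Hdc and the T cell receptor segment Trav3-4 were highest in Yap-cKO replicate 1, at 62.8, 342 and 46.1 CPM, against 5.41 to 12.5, 12.98 to 46.6 and 0.529 to 1.49 CPM in the other 3 Yap-cKO libraries. Without Yap-cKO replicate 1, 2 genes were higher on the T-lineage scale, and without Yap-cKO replicate 4 the number was also 2.

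The response to genotype differed between tumor and lymph node for few genes when the difference itself was tested. In the tissue by genotype interaction over 16 CD4+ libraries, 204 of 15077 genes were called (1.35%). The TIL response was the more positive in 31 (0.206%) and the more negative in 173 (1.15%). In TDLNs alone 6 of 12985 genes (0.0462%) differed between the genotypes, 4 higher (0.0308%) and 2 lower (0.0154%), and 226 passed at an unadjusted p under 0.05. Yap1 had an interaction log2 value of −2.81 (standard error 0.55, adjusted p = 0.0236), and Vegfa one of −2.40 (adjusted p = 0.014). Among Treg and costimulatory genes Ccr8 had the smallest adjusted p (interaction 2.97, adjusted p = 0.0129) and kept its call in 16 of the 16 fits that left out 1 library. In TDLNs Ccr8 averaged 87.9 CPM in WT against 36.2 CPM in Yap-cKO mice, a difference that did not pass (log2 fold change −1.25, adjusted p = 0.884).

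The other T cell genes with a positive interaction were Ikzf4 (2.06), Il10 (2.90), Tnfrsf18 (2.05), Itgae (2.62), Klrg1 (2.78), Tnfrsf4 (2.37), Tnfrsf9 (2.31), Tigit (2.45) and Havcr2 (3.19). Each of these 9 kept its call in only 2 to 5 of the 16 fits that left out 1 library. With T-lineage scaling 6 of 15077 genes had a positive and 2058 a negative interaction call. At most 6 of the positive calls named here, that of Ccr8 included, thus held on that scale. Foxp3 had an interaction of 2.21 with an adjusted p of 0.0508 and was not called. In TDLNs Foxp3 averaged 146 CPM in WT against 91.1 CPM in Yap-cKO mice. The negative interactions included the stromal genes Kdr, Pdgfrb and Postn, the melanocyte genes Tyr, Dct and Mitf, and Myof and Tgfb3. Yap1 lost its call in 6 of the 16 fits that left out 1 library. The fits took the 16 libraries as independent, although TIL and TDLN libraries with the same number could come from the same mouse.

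**Figure D5:**
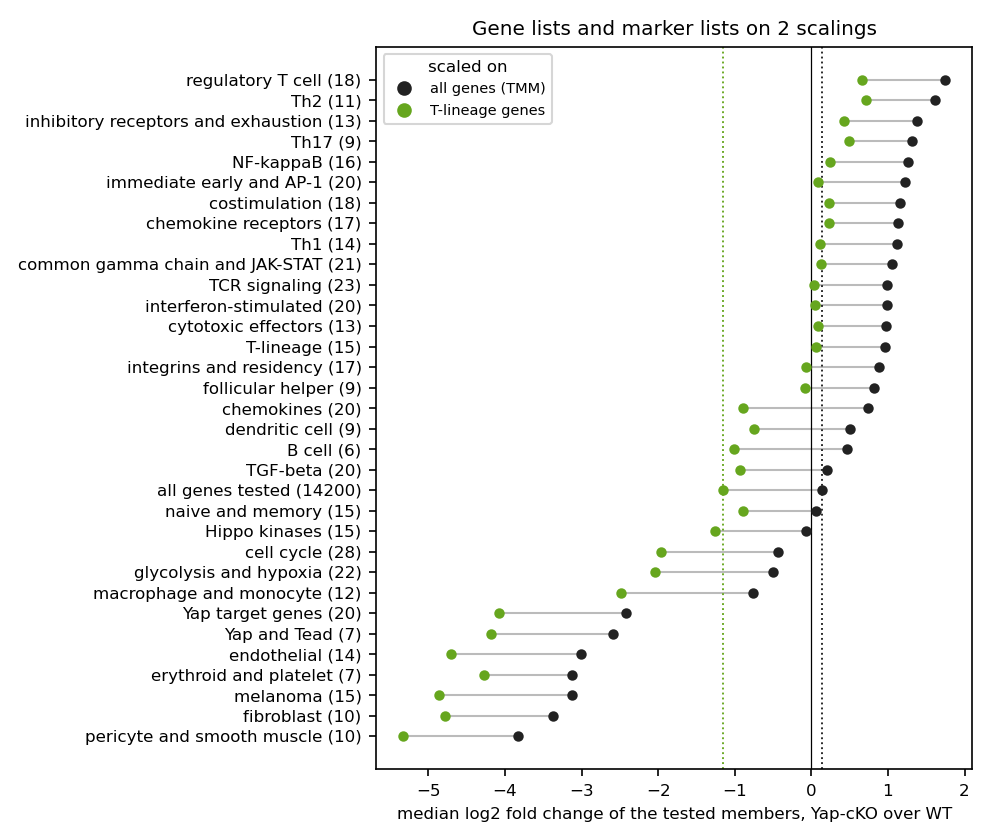
Each row gives the median log2 fold change (Yap-cKO over WT) of the tested members of a gene or marker list, whose number is in parentheses, with libraries scaled on all genes (black) or on 15 T-lineage genes (green), and dotted lines mark the medians over all 14200 genes. The medians run from 1.74 for Treg genes to −3.84 for pericyte genes on all genes, and from 0.72 for Th2 genes to −5.33 for pericyte genes on the T-lineage scale.

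The change of scale lowered the median of every list, and that of the T-lineage genes went from 0.97 to 0.06. Treg and Th2 genes remained above the T-lineage genes on both scales, at 0.67 and 0.72 on the second. TCR signaling, interferon-stimulated and cytotoxic genes stood at 0.03, 0.04 and 0.09, next to the T-lineage genes, while naive and memory genes stood at −0.89. Yap target genes, at −4.08, and the partners of Yap, at −4.18, stood between the macrophage genes at −2.48 and the endothelial genes at −4.70. These medians describe lists that were chosen with results of the data known, and no test compared the lists with each other.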

How the data were processed

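Expected counts and TPM were deposited by the authors per transcript and library. Per the labels and the study's methods, live cells were sorted, RNA was amplified with SMART-Seq v4, paired-end reads were trimmed with Trimmomatic and transcripts were quantified with Salmon 0.9.1 against GRCm38. The deposited expected counts were not normalized by the authors, and the deposited TPM served only to weight effective lengths. Transcripts were matched to GENCODE M21 (111787 of 112092 matched), counts were summed over 34932 genes and rounded, and 728 genes on chromosome Y or Xist were left out of every fit. All values came from single-library files (0 tables mix samples).

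The fits used edgeR 4.0.16 (R 4.3.3) with TMM, the quasi-likelihood F test and genotype as the term, on genes that reached 10 counts in 4 or more libraries. A call needed a Benjamini-Hochberg adjusted p (over every tested gene) under 0.05 and a log2 fold change beyond 1 in size. The standard error is the log2 fold change divided by the square root of F. On the second scale the library sizes were the summed counts of 15 T-lineage genes. The interaction was fitted over 16 libraries. CPM in TDLNs were normalized over 24 libraries. Where a group held at most 3 counts in each library, the fold change is a lower bound. The scripts were tested on simulated data. Counts do not use strand, so overlapping genes and gene copies are uncertain. Reads carry no molecular identifiers, and the spread between libraries, which may be partly technical, sets the p-values. No pair of the 8 libraries was identical (0 of 28).

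The comparison, the gene lists and the tests were chosen with earlier results of these data known. Named genes are Yap1, list members, the 10 largest increases and decreases of protein-coding genes at 10 CPM or more without overlap, those higher relative to T-lineage genes, list members with an interaction, and the 5 with the most CPM among those higher. The alternatives were DESeq2 1.42.0, no count filter, transcript length offsets, a replicate block, T-lineage scaling, marker and Y-linked covariates, no fold change threshold and each library left out. Xist was not analysed here, and 1 list member is not reported here.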

Additional observations from a re-analysis of the deposited data

Results flagged for a closer look

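In 24 of the 246 groups of 4 libraries that were checked, 1 library stood far from the other 3 (Dixon's test at the 95% level), where chance gives about 1 in 20. Of these, 9 were Yap-cKO replicate 1, 9 Yap-cKO replicate 3 and 3 each WT replicates 1 and 4. In Yap-cKO replicate 1 Il5 (373.6 CPM), Cyp11a1 (107.6 CPM), Calca (62.78 CPM), Hdc (341.7 CPM) and Trav3-4 (46.06 CPM) were high, as were Il10 (68.77 CPM), Nfkbia (1941 CPM) and Egln3 (103.4 CPM), and Vgll3 was low (0.386 CPM). In Yap-cKO replicate 3 the tumor and stromal genes Pmel (1055 CPM), Col6a3 (6.49 CPM), Pdgfrb (5.398 CPM) and Ccn2 (24.42 CPM), the fibroblast sum (102.3 CPM), the macrophage sum (685.0 CPM) and the T-lineage sum (11474 CPM) were high, together with Tbx21 (283.9 CPM) and Lag3 (42.35 CPM). In WT replicate 1 Ccn1 (328.2 CPM) and Tead1 (9.552 CPM) were high and Ctla4 was low (151.4 CPM). In WT replicate 4 Pparg (9.295 CPM), Egln3 (13.18 CPM) and the endothelial sum (275.1 CPM) were low.

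The response to genotype differed between TILs and TDLNs for 20 of the named genes (interaction over 16 libraries, edgeR's quasi-likelihood F test, Benjamini-Hochberg adjusted p from 0.0129 to 0.0494). On the log2 scale the TIL response minus the TDLN response was negative for 10 genes, Yap1 (−2.81), Myof (−3.79), Tgfb3 (−2.17), Vegfa (−2.40), Kdr (−5.12), Pdgfrb (−9.62), Tyr (−3.77), Dct (−3.26), Mitf (−3.86) and Postn (−6.86). It was positive for 10 T cell genes, Ikzf4 (2.06), Il10 (2.90), Tnfrsf18 (2.05), Ccr8 (2.97), Itgae (2.62), Klrg1 (2.78), Tnfrsf4 (2.37), Tnfrsf9 (2.31), Havcr2 (3.19) and Tigit (2.45). On the T-lineage scale 11 of the 20 genes kept their call and 9 did not. Pdgfrb was at 0 in all WT TDLN libraries and Postn averaged 0.0132 CPM (WT) and 0.129 CPM (Yap-cKO) in TDLNs, under the level of 3 counts. Both values depend on the small constant the fit adds and are no bounds, and that of Postn ran from −8.45 to −5.60 when 1 library was left out.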

How the results depend on the processing

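With all 8 libraries 1139 genes were called between the genotypes. Without the count filter 1720 were called, with DESeq2 2142, with T-lineage scaling 3648 and with the mean of 53 non-T markers as a covariate 2599 (1352 higher and 1247 lower, of which 34 and 23 were among the 193 higher and 946 lower). With a covariate of 4 Y-linked genes 2 were called (0 higher and 2 lower), of which Aplnr was one, and 1147 had an unadjusted p under 0.05, while the median log2 fold change was −2.98 for melanoma, −1.75 for endothelial, −2.62 for Yap and its partners, −1.87 for Yap target and 1.78 for Treg genes (−3.13, −3.01, −2.58, −2.42 and 1.74 without the covariate). Genotype explained 0.857 of the variance of the first and 0.580 of that of the second covariate, so neither can be told apart from genotype, and the cause of the changes was not tested. Leaving out 1 library gave 332 to 3235 called genes, 332 without WT replicate 2, 357 without Yap-cKO replicate 4, 417 and 671 without WT replicates 1 and 4, and 483 and 668 without Yap-cKO replicates 2 and 1. Length offsets (1064) and no fold change threshold (1139) left the count within 1.5 times. Relative to T-lineage genes 3648 genes were called, 2376 with the replicate block and 1403 to 5294 without 1 library, and scaling on 4 CD3 genes gave 3574. The interaction gave 204 genes, 387 without the count filter, 842 with DESeq2, 89 with the replicate block and 47 to 901 without 1 library. With T-lineage scaling it gave 2064, of which 6 were positive and 2058 negative. Same-numbered WT and Yap-cKO libraries deviated from their group means with correlations of −0.29, −0.37, 0.22 and 0.26. Pairs with unlike numbers ran from −0.63 to 0.54. The labels do not say whether the replicate numbers pair the libraries, and these values cannot settle it. With the replicate block 767 genes were called between the genotypes. With T-lineage scaling the sign of 5 genes that were not called turned, namely Ifng −0.21, Il4 −0.0208, Mki67 −0.60, Stk4 −0.28 and Vgll4 −0.55. That of Ifng also turned with the Y-linked covariate (−0.36) and against WT replicate 4 alone (−0.59). With the marker covariate 39 named genes turned sign in their log2 fold change, 15 to positive values (Ccn1 0.063, Ccn2 1.46, Ccnd1 0.82, Col6a3 0.59, Dct 0.079, Gpc4 0.13, Itga5 0.73, Mlana 1.48, Pdgfrb 0.17, Pmel 1.48, Tead1 0.077, Tead2 0.82, Tead4 0.87, Wwc1 0.057, Wwtr1 0.51) and 24 to negative ones (Areg −1.01, Calca −0.36, Cd80 −0.51, Ctla4 −1.33, Gata3 −0.48, Havcr2 −2.24, Hdc −2.64, Ifng −2.63, Ikzf2 −1.95, Il1rl1 −3.05, Il2ra −3.20, Il5 −1.37, Itgae −0.013, Itgb8 −0.40, Mki67 −1.71, Nfkb1 −0.42, Pcsk1 −0.34, Pparg −1.23, Prdm1 −0.97, Ptgir −0.089, Ptprc −4.65, Rassf6 −2.002, Stk4 −2.01, Trav3-4 −4.04). A call rests on the depth and on 4 libraries per genotype, and with 3 counts at 0.166 to 0.193 CPM genes at 0 in one genotype give only a bound.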
